A study of Mus musculus with 10 samples.

Results

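A set of 10 genes that serve mechanosensing and cell-to-cell coupling in bone were examined, chosen by their symbols: Gja1, Panx1, Panx3, Piezo1, Piezo2, Trpv4, Pkd1, P2rx7, Ptgs2 and Nos3. They are 10 of the 22548 genes in the deposited table, and all 10 were among the 16186 genes that passed the filter on low counts. The RNA came from osteocyte preparations of 5 control mice (No MM, mice 1 to 5) and 5 myeloma-bearing mice (MM, mice 6 to 10), with 1 library per mouse. All mice were C57BL/6, labelled male and 8 weeks old. The age label does not say whether it refers to injection or to bone collection. MM mice received Vk12598 cells, a murine myeloma line, by injection into the femur, and their femurs were examined at week 6, whereas No MM mice received no myeloma cells and, per the study's methods for its myeloma models, PBS in their place. Bone pieces were digested in repeated rounds of collagenase and EDTA and the cell pellets were collected with no sort on a marker described, so the preparations could hold other cells of bone and marrow.

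Osteocytes sit in mineralized bone and are linked by long processes that meet at gap junctions, mostly made of connexin 43, the product of Gja1. Stretch and fluid flow are known to open ion channels such as those encoded by Piezo1, Piezo2 and Trpv4 and to act on the polycystin receptor encoded by Pkd1 at the primary cilium. Loaded bone cells release ATP through pannexin and connexin channels, sense it through purinergic receptors such as P2rx7, and make prostaglandins and nitric oxide, for which Ptgs2 and Nos3 encode enzymes.

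For none of the 10 genes did the test call a difference between MM and No MM. In edgeR's quasi-likelihood test, with Benjamini-Hochberg adjustment across the whole set of tested genes, 0 of 10 had an adjusted p under 0.05, and the smallest was 0.46, for P2rx7. The background was 0 of 16186 genes, or 0.0%, and DESeq2 called 34 genes higher and 155 lower, none of the 10 among them. Before adjustment, edgeR gave 0 of the 10 genes a p under 0.05, where the background over all genes was 3.81% higher in MM and 10.3% lower, 14.1% together. Of the genes, 7 had a fitted log2 fold change above 0 and 3 below, where all tested genes had 7664 above and 8522 below. The median was 0.21 for the 10 genes and -0.0272 over all tested genes. The groups overlapped for all 10 genes, with a background of 1.41% of genes whose groups did not overlap.

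Levels are given as CPM after TMM scaling, in which each gene's read count is set relative to the library's scaled total. Each library held 31099174 to 39466332 counted reads, and 3 counts corresponded to 0.0709 to 0.114 CPM. Libraries No MM 3 and No MM 4 stood apart: immunoglobulin genes took 26.6% and 29.0% of their reads, against 0.637% to 3.86% in the other 8, and the 7 plasma cell markers summed to 3918 and 3763 CPM, against 340 to 647 CPM. Both are labelled as controls, and in MM the plasma cell markers summed to 340 to 407 CPM. Nothing in the files checks whether these 2 libraries carry the right label, and every comparison of MM with No MM rests on the labels as given. Y-linked reads went against the labelled sex in 7 libraries, with 0 to 1.27 CPM from 4 Y-linked genes (0 to 47 reads), where No MM 5, MM 9 and MM 10 had 142 to 176 CPM. Xist, an RNA made in female cells, measured 36.2 to 718 CPM in the 7 libraries. In No MM 5, MM 9 and MM 10 it measured 0.364 to 6.20 CPM. The study's methods name male or female mice, so the labelled sex is not taken as settled here. All 10 osteocyte markers were detected and summed to 383 to 2629 CPM in No MM and 440 to 1875 CPM in MM, with a p of 0.897 in a two-sided exact permutation test. The 9 osteoblast markers summed to 2914 to 44477 CPM and 14421 to 50684 CPM, and the 10 neutrophil markers to 7159 to 34300 CPM and 11929 to 31213 CPM. No measured gene of any marker list was at 0 in all libraries. In such bulk samples, fewer cells of a type and less RNA per cell cannot be told apart. Each gene's fold change is therefore also given without No MM 3 and No MM 4, which leaves 3 No MM and 5 MM libraries.

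Of the gap junction and large-pore channel genes, Gja1 and Panx3 varied widely between mice. The SD of log2 CPM over the 10 libraries was 1.17 for Gja1 and 1.59 for Panx3, at the 90.8th and 96.8th percentiles of all tested genes. Gja1 (ENSMUSG00000050953, chr10:56377300-56390419, plus strand, GRCm38 as in the deposited table) encodes connexin 43. Gja1 measured 330, 289, 71.3, 52.9 and 773 CPM in No MM 1 to 5 and 453, 223, 277, 189 and 346 CPM in MM 6 to 10. The 2 lowest libraries were No MM 3 and No MM 4 and the highest was No MM 5, so the No MM range enclosed every MM value. The means were 303 ± 291 CPM in No MM and 297 ± 105 CPM in MM (SD, n = 5 each). The log2 fold change was -0.03 with an SE of 0.625 and a 95% interval of -1.41 to 1.35 (edgeR, adjusted p = 0.988). The exact permutation test, here and for the other genes, compares mean log2 CPM instead. For Gja1 that difference had the opposite sign, 0.54 (exact permutation p = 0.46), and for the other 9 genes it had the sign of the fold change. Without No MM 3 and No MM 4 the fold change for Gja1 was -0.65 with an SE of 0.386 (edgeR, adjusted p = 0.643), and without No MM 5 alone it was 0.68 (adjusted p = 0.492).

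Panx1 (ENSMUSG00000031934, chr9:15005161-15045478, minus strand) encodes a widely expressed ATP-release channel. Panx1 measured 23.4, 18.8, 5.65, 5.81 and 13.2 CPM in No MM and 15.4, 18.1, 15.7, 15.6 and 12.4 CPM in MM. The 5 MM values lay within the No MM range, with No MM 3 and No MM 4 below all others and No MM 1 and No MM 2 above all MM values. MM over No MM gave a log2 fold change of 0.21 with an SE of 0.382 and an interval of -0.63 to 1.05 (edgeR, adjusted p = 0.824; exact permutation p = 0.389). Without No MM 3 and No MM 4 it was -0.28, with an interval of -0.77 to 0.21 (edgeR, adjusted p = 0.67).

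Panx3 (ENSMUSG00000011118, chr9:37659902-37669222, minus strand) encodes a pannexin known from osteoblasts and cartilage. Panx3 measured 28.1, 20.9, 6.36, 1.20 and 35.5 CPM in No MM and 72.1, 22.1, 18.4, 10.5 and 13.2 CPM in MM. MM 6 was the highest library and No MM 4 the lowest, 60.2-fold apart, and the rest of the groups intermingled. The means were 18.4 ± 14.4 and 27.2 ± 25.5 CPM (SD, n = 5 each). The log2 fold change was 0.56 with an SE of 0.774 (edgeR, adjusted p = 0.758; exact permutation p = 0.421). It was -0.20 without MM 6 (adjusted p = 0.908) and -0.06 without No MM 3 and No MM 4 (adjusted p = 0.971). Within each library, the log2 ratio of Panx3 to Panx1 per kilobase of gene length was 0.05 ± 1.35 in No MM and 0.55 ± 1.05 in MM (SD, n = 5 each; exact permutation p = 0.516, and 0.516 after adjustment over the 3 ratios tested). Panx3 exceeded Panx1 on that scale in all libraries but No MM 4 and MM 9.

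**Figure D1:**
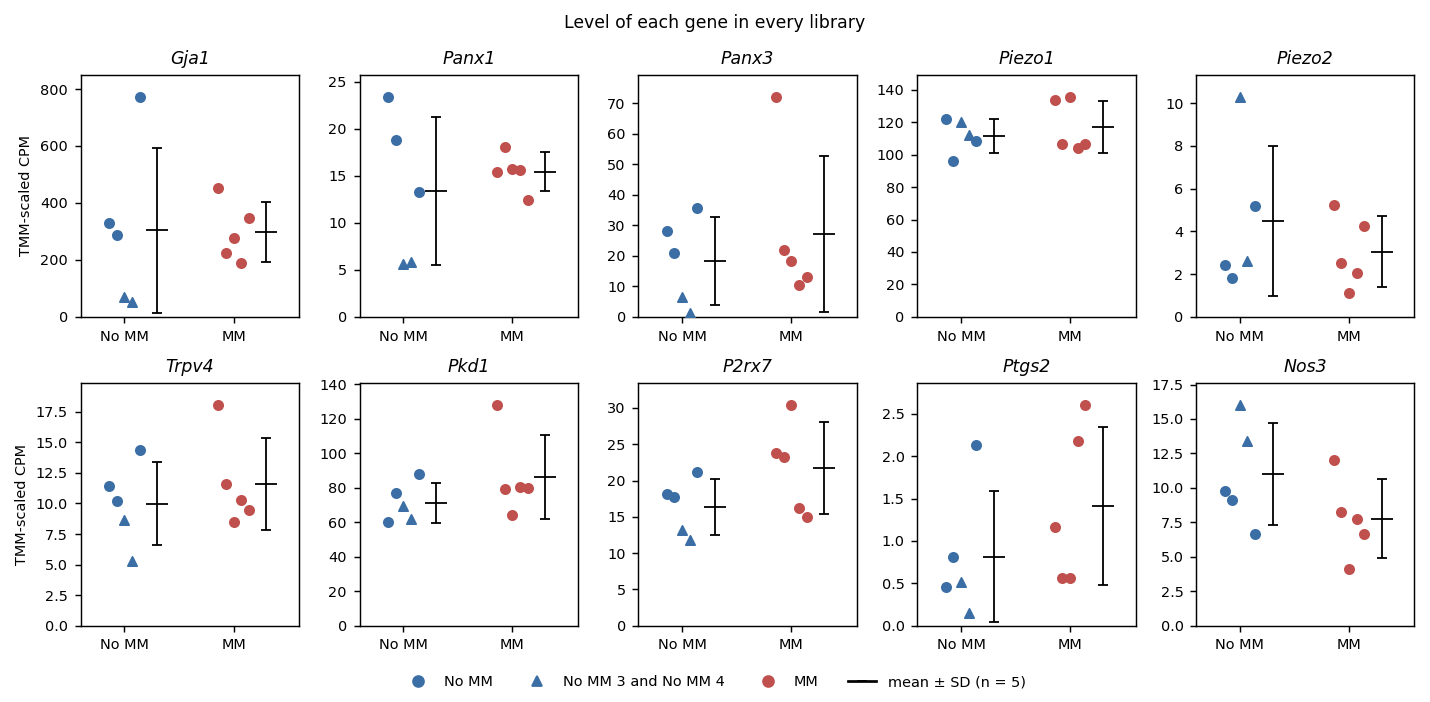
TMM-scaled CPM (vertical axes, from 0) of the 10 genes in each of the 5 No MM and 5 MM libraries, with 1 point per library in mouse order, triangles for No MM 3 and No MM 4, and bars for mean ± SD (n = 5). The groups overlap in all 10 panels, Piezo1 stays between 95.8 and 136 CPM, and Gja1 runs from 52.9 to 773 CPM.

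Among the stretch-gated channel genes, Piezo1 was steady between mice and Piezo2 was low and uneven. Piezo1 (ENSMUSG00000014444, chr8:122481698-122551329, minus strand) encodes the main force-gated cation channel of bone cells. Piezo1 measured 122, 95.8, 119.9, 112 and 108 CPM in No MM and 134, 106, 136, 104 and 106 CPM in MM. The highest library was 1.42-fold above the lowest, and No MM 3 and No MM 4 averaged 1.02 times the other 8. The SD of log2 CPM over the 10 libraries was 0.163, at the 3.23rd percentile of all tested genes. MM over No MM gave a log2 fold change of 0.07 with an SE of 0.141 and an interval of -0.24 to 0.38 (edgeR, adjusted p = 0.836; exact permutation p = 0.524). Piezo1 thus had the narrowest interval of the 10 genes, and without No MM 3 and No MM 4 its value was 0.09 (adjusted p = 0.842). In GENCODE M21, Gm20388 on the opposite strand spans the whole of Piezo1, and Ctu2 shares 2441 bases with it. The strand setting of the counting is not given in the sources used here, so reads of overlapping genes may not be fully separated.

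Piezo2 (ENSMUSG00000041482, chr18:63010213-63387183, minus strand) encodes the related channel known from touch neurons. Piezo2 measured 2.44, 1.80, 10.3, 2.61 and 5.19 CPM in No MM and 5.23, 2.54, 1.13, 2.07 and 4.27 CPM in MM. No MM 3 was the highest library, and the other 9 lay between 1.13 and 5.23 CPM. The log2 fold change was -0.55 with an SE of 0.554 (edgeR, adjusted p = 0.658; exact permutation p = 0.5), and it was 0.01 without No MM 3 (adjusted p = 0.996) and -0.06 without both No MM 3 and No MM 4 (adjusted p = 0.972). The log2 ratio of Piezo2 to Piezo1 per kilobase was -5.32 ± 0.948 in No MM and -5.83 ± 0.919 in MM (SD, n = 5 each; exact permutation p = 0.389, adjusted 0.516), and it was below 0 in all 10 libraries.

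Trpv4 (ENSMUSG00000014158, chr5:114622152-114658421, minus strand) encodes a calcium-permeable channel that responds to osmotic and flow stimuli. Trpv4 measured 11.4, 10.2, 8.63, 5.30 and 14.4 CPM in No MM and 18.0, 11.6, 8.51, 10.3 and 9.47 CPM in MM. No MM 4 was lowest and MM 6 highest. MM over No MM gave a log2 fold change of 0.21 with an SE of 0.301 (edgeR, adjusted p = 0.768; exact permutation p = 0.46), and it was -0.07 without No MM 3 and No MM 4 and -0.0048 without MM 6.

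Pkd1 (ENSMUSG00000032855, chr17:24549950-24596514, plus strand) encodes polycystin 1. Pkd1 measured 59.9, 77.1, 69.5, 61.8 and 87.9 CPM in No MM and 128, 79.2, 63.9, 80.2 and 79.8 CPM in MM. MM 6 stood above the other 9 libraries, which ran from 59.9 to 87.9 CPM. The means were 71.2 ± 11.5 and 86.2 ± 24.2 CPM (SD, n = 5 each), and the log2 fold change was 0.27 with an SE of 0.198 and an interval of -0.16 to 0.71 (edgeR, adjusted p = 0.529; exact permutation p = 0.262). It was 0.0887 without MM 6 and 0.19 without No MM 3 and No MM 4. The opposite-strand gene Tsc2 shares 693 bases with Pkd1. MM 6 also had the highest osteoblast and chondrocyte marker sums, at 50684 and 1619 CPM. The osteoblast sums were 41418 CPM in No MM 1 and 44477 CPM in No MM 5, where Pkd1 was 59.9 and 87.9 CPM. With the osteoblast markers as a covariate the fold changes were 0.163 for Panx3, 0.0171 for Trpv4 and 0.168 for Pkd1 (edgeR, adjusted p = 0.86, 0.975 and 0.685). The part of either marker set in the MM 6 values was not tested.

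With all 10 libraries, the ATP receptor and the enzyme genes likewise gave intervals that included 0. P2rx7 (ENSMUSG00000029468, chr5:122643911-122691432, plus strand) encodes an ATP-gated channel. P2rx7 measured 18.1, 17.7, 13.1, 11.8 and 21.2 CPM in No MM and 23.8, 23.2, 30.4, 16.2 and 14.9 CPM in MM. MM 6, MM 7 and MM 8 lay above every No MM library, while MM 9 and MM 10 lay between No MM 3 and No MM 2. The means were 16.4 ± 3.86 and 21.7 ± 6.29 CPM (SD, n = 5 each), and the log2 fold change was 0.40 with an SE of 0.243 and an interval of -0.13 to 0.94 (edgeR, adjusted p = 0.46; exact permutation p = 0.151). Without No MM 3 and No MM 4, the lowest pair, it was 0.17 (adjusted p = 0.799).

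Ptgs2 (ENSMUSG00000032487, chr1:150100031-150108227, plus strand) encodes the inducible cyclooxygenase and was the sparsest of the genes, with 4 to 100 counts per library. Ptgs2 measured 0.46, 0.82, 0.52, 0.15 and 2.13 CPM in No MM and 1.16, 0.57, 0.57, 2.18 and 2.60 CPM in MM. The 3 highest libraries were No MM 5, MM 9 and MM 10, which are also the 3 rich in Y-linked reads. The log2 fold change was 0.78 with an SE of 0.673 and an interval of -0.70 to 2.26 (edgeR, adjusted p = 0.608; exact permutation p = 0.222). It was 0.30 without No MM 3 and No MM 4, 0.50 with high against low Y-linked reads as a covariate, and 1.53 without No MM 5 (adjusted p = 0.191). That last fit had an unadjusted p of 0.0351 in edgeR and an interval of 0.13 to 2.93. Over the 16353 genes tested in it, 1276 were higher and 2376 lower in MM at an unadjusted p under 0.05. Ptgs1, which encodes the constitutive cyclooxygenase, measured 30.0 to 51.2 CPM in No MM and 39.1 to 71.4 CPM in MM. The log2 ratio of Ptgs2 to Ptgs1 per kilobase was -6.75 ± 1.14 in No MM and -6.13 ± 0.924 in MM (SD, n = 5 each; exact permutation p = 0.373, adjusted 0.516), and it was below 0 in all 10 libraries.

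Nos3 (ENSMUSG00000028978, chr5:24364810-24384474, plus strand) encodes endothelial nitric oxide synthase. Nos3 measured 9.75, 9.12, 16.0, 13.4 and 6.66 CPM in No MM and 12.1, 8.24, 4.14, 7.75 and 6.69 CPM in MM. No MM 3 and No MM 4 were the 2 highest libraries and MM 8 the lowest. MM over No MM gave a log2 fold change of -0.50 with an SE of 0.324 and an interval of -1.21 to 0.22 (edgeR, adjusted p = 0.488; exact permutation p = 0.167), and without No MM 3 and No MM 4 it was -0.15 (adjusted p = 0.874). The 10 endothelial markers summed to 409 to 810 CPM in No MM and 417 to 645 CPM in MM, with 576 and 409 CPM in No MM 3 and No MM 4. Nos3 per 1000 CPM of endothelial markers was 27.8 and 32.8 CPM in that pair and 9.92 to 18.7 CPM in the other 8 libraries. The opposite strand holds Atg9b over 294 bases and the antisense gene Gm15587 over 17423 bases of Nos3.

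**Figure D2:**
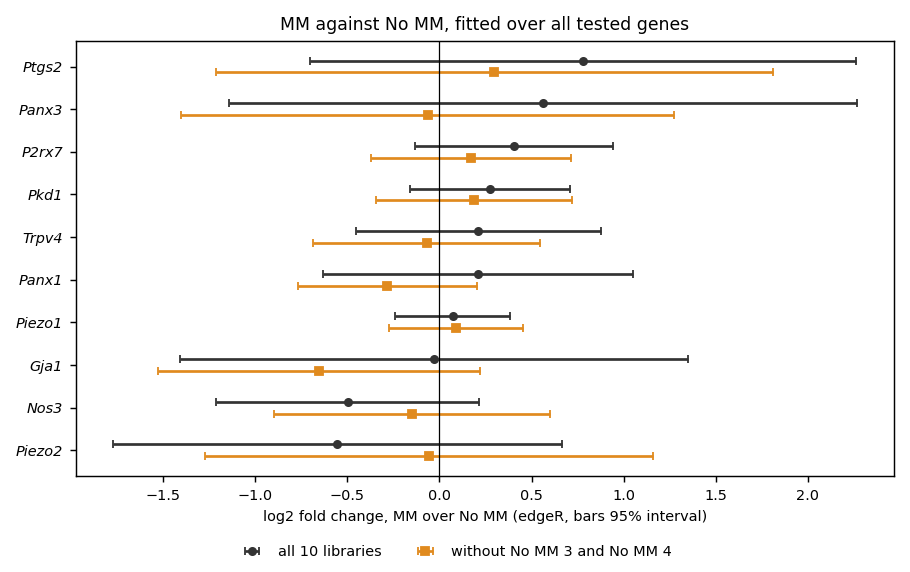
Log2 fold change of MM over No MM (horizontal axis) for each gene, with a 95% interval derived from the edgeR test, in all 10 libraries (circles) and without No MM 3 and No MM 4 (squares). Every interval includes 0, Piezo1 has the narrowest at -0.24 to 0.38, and Panx1, Panx3 and Trpv4 change side when the 2 libraries are left out.

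Without No MM 3 and No MM 4, 4 genes had a fold change above 0 and 6 below, and 3 changed direction. Both libraries lay below all other 8 for 4 genes, Gja1, Panx1, Panx3 and P2rx7, and above them for 1, Nos3. The shares of all tested genes with these directions and patterns were not counted, so the counts are given as values only. Relative to the mean of the other 8, their mean was 0.173 for Gja1, 0.137 for Panx3, 0.345 for Panx1 and 1.83 for Nos3. The pair also had the lowest osteoblast marker sums, 4143 and 2914 CPM against 14421 to 50684 CPM. Gja1 per 1000 CPM of osteoblast markers was 17.2 and 18.2 CPM in the pair and 7.97 to 19.2 CPM in the other 8. Panx3 on that scale was 1.54 and 0.411 CPM, against 0.447 to 1.42 CPM. Col1a1 and Col1a2 led the marker sum, with No MM means of 8566 and 10732 CPM. The part of osteoblast content in the Gja1 and Panx3 values was not tested. With the mean log2 level of the osteoblast markers as a covariate, the fold change was -0.0556 for Gja1 and 0.117 for Panx1 (edgeR, adjusted p = 0.931 and 0.847).

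The 7 libraries with few Y-linked reads, each under 10 CPM, hold 4 No MM and 3 MM mice. Within them, the log2 fold changes were 0.77 for Gja1, 0.29 for Panx1, 1.41 for Panx3, 0.16 for Piezo1, -0.53 for Piezo2, 0.52 for Trpv4, 0.43 for Pkd1, 0.77 for P2rx7, 0.65 for Ptgs2 and -0.56 for Nos3. The smallest adjusted p among them was 0.444, for P2rx7 (edgeR), where the unadjusted p was 0.0168 and the interval 0.18 to 1.35. Over the 16466 genes tested in this fit, 673 were higher and 1142 lower in MM at an unadjusted p under 0.05. The 4 No MM libraries here include No MM 3 and No MM 4, and the 3 libraries rich in Y-linked reads hold 1 No MM mouse, too few for a comparison of their own.

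**Figure D3:**
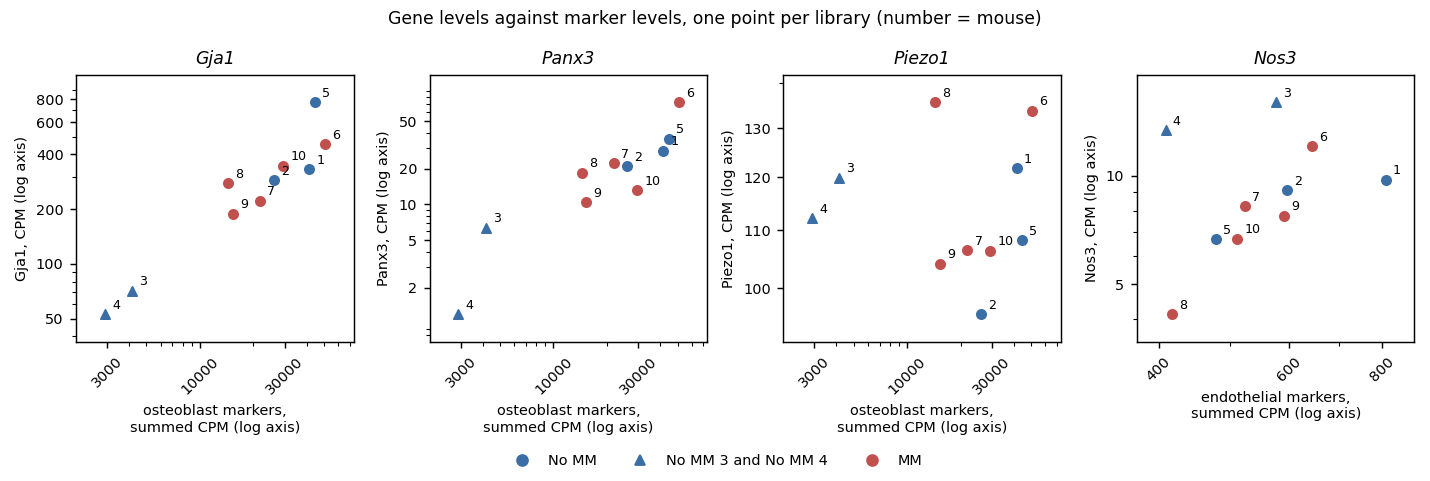
CPM of Gja1, Panx3 and Piezo1 against the summed CPM of osteoblast markers, and of Nos3 against that of endothelial markers, on log axes, with 1 point per library numbered by mouse and triangles for No MM 3 and No MM 4. The 2 triangles sit lowest for Gja1 and Panx3 at osteoblast sums of 2914 and 4143 CPM, lie among the other libraries for Piezo1, and are highest for Nos3.

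The genes whose log2 CPM, centred over the 10 libraries, lay closest to Gja1 were Tnfrsf19, a receptor of the TNF receptor family, at a root mean square difference of 0.14, Gm15663 at 0.19 and Fhod3, a formin, at 0.23. The same measure for a flat profile was 1.11 for Gja1. For Panx3 the closest were Ibsp, which encodes bone sialoprotein, at 0.37, Kcnk1, a potassium channel gene, at 0.37 and Smpd3, a sphingomyelinase gene, at 0.40, with 1.51 for a flat profile. Of the other 9 genes examined, Panx3 was the nearest to Gja1, at 0.738, but 992 tested genes were nearer.

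Compared per kilobase of gene length, the levels of the 10 genes lay far apart. Gja1 had a mean of 96.7 CPM per kb over the 10 libraries, at the 96.1st percentile of tested genes. Piezo1 followed at 13.9, then Panx3 at 9.07, Pkd1 at 5.55, Panx1 at 5.34, P2rx7 at 3.86, Trpv4 at 3.34 and Nos3 at 2.27 CPM per kb. Piezo2 at 0.351 and Ptgs2 at 0.250 CPM per kb lay at the 7.24th and 4.83rd percentiles. Gja1 exceeded Piezo1, and Nos3 exceeded Piezo2, in 10 of 10 libraries. Piezo1 exceeded Panx3 in 8 and Trpv4 exceeded Nos3 in 8, and for the other neighbours the order held in 5 to 7 libraries, so Panx3, Pkd1, Panx1, P2rx7 and Trpv4, and likewise Piezo2 and Ptgs2, were not separated from their neighbours beyond the spread between libraries.

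**Figure D4:**
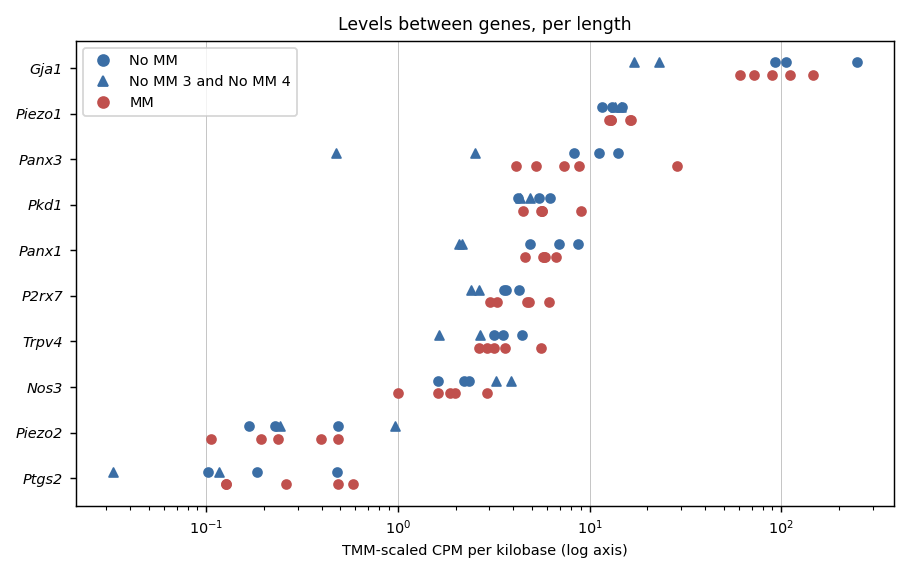
TMM-scaled CPM per kilobase of gene length (horizontal log axis) of each gene in each library, ordered by the mean over 10 libraries, with No MM and MM offset vertically and triangles for No MM 3 and No MM 4. Gja1 lies above Piezo1 in all 10 libraries, and Piezo2 and Ptgs2 are lowest, with means of 0.351 and 0.250 CPM per kb.

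The sequences before the gene starts are shown for 3 genes that differ in level and steadiness: Gja1, the most abundant, Piezo1, the steadiest, and Panx1. RefSeq promoter windows (GRCm38.p6) were at hand for 7 of the 10 genes, with 2 windows for P2rx7, and the 250 bases before the start are printed 5′ to 3′ on the gene's strand. Capitals mark motif matches on either strand. The motif of the TATA box was spelled TATAAA, and that of the GC box was GGGCGG. The CCAAT box was searched by the letters of its name. For AP-1 the letters searched were TGAGTCA, for the cyclic AMP response element TGACGTCA, and for the E-box CACGTG. No match in these windows overlapped another. The windows are chr10:56377050-56377299 (plus strand) for Gja1, chr8:122551330-122551579 (minus strand) for Piezo1 and chr9:15045479-15045728 (minus strand) for Panx1.
Gja1: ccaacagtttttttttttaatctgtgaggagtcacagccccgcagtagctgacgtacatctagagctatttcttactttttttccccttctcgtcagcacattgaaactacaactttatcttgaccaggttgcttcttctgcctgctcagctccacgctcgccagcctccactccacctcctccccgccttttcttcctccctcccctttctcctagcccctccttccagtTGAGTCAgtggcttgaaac
Piezo1: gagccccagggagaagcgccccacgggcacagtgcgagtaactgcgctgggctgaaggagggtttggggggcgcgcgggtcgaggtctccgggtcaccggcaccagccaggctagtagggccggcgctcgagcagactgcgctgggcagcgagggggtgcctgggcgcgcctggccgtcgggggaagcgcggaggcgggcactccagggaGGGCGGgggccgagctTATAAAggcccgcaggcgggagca
Panx1: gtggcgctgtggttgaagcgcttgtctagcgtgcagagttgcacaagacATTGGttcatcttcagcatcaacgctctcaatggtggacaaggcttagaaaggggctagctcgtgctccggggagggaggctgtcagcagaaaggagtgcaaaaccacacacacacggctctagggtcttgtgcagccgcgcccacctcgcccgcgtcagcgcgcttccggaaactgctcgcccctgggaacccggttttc
The Gja1 window held an AP-1 match starting at position -19 from the gene start, had a GC content of 50% and held 6 CpG dinucleotides. The Piezo1 window held a GC box at -40 and a TATA box at -24, with 74.0% GC and 26 CpG dinucleotides, and the Panx1 window held a CCAAT box at -201 on the opposite strand, with 59.6% GC and 17 CpG dinucleotides. Over 32851 windows of the same length, TATAAA was found in 12.4%, GGGCGG in 32.7%, CCAAT in 33.8%, TGAGTCA in 4.46%, TGACGTCA in 1.55% and CACGTG in 6.02%, and the median GC content was 52.4%, with a median of 6 CpG dinucleotides. A match describes the letters only.

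The wider pathways were read from 5 gene lists, which include the 10 genes, and no gene of any list passed the adjusted threshold. Of the 101 list genes tested, 13 had an unadjusted p under 0.05, or 12.9%, near the 14.1% of all tested genes. By direction, 4.95% were higher and 7.92% lower in MM, beside 3.81% and 10.3% over all genes, so the single genes below are given as values only. Of the connexins and pannexins, listed with the junction scaffold gene Tjp1, 9 of 20 in the table passed the filter, 3 with a fold change above 0 and 6 below, with a median of -0.0351 and 0 genes at an unadjusted p under 0.05. Of the mechanosensitive channel and cilium genes, 23 were tested, 12 above 0 and 11 below, with a median of 0.0179, and 2 were higher at an unadjusted p under 0.05. Trpc6, a receptor-operated cation channel gene, measured 10.1 ± 7.07 CPM in No MM and 25.6 ± 9.52 CPM in MM (log2 fold change 1.34, edgeR, adjusted p = 0.315), and Adcy6, an adenylyl cyclase gene, measured 79.1 ± 9.70 and 107 ± 21.3 CPM (0.44, adjusted p = 0.315).

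Of the purinergic genes, 23 were tested, 17 above 0 and 6 below, with a median of 0.245, and an unadjusted p under 0.05 was reached by 2 with a value above 0 and 3 with one below. The ADP receptor genes P2ry12 and P2ry1 had log2 fold changes of 0.87 and 0.75 (edgeR, adjusted p = 0.315 and 0.348). Both receptors are known from platelets. The summed megakaryocyte markers ran from 136 to 1193 CPM in No MM and from 398 to 1885 CPM in MM, and their part was not tested. Entpd1 and Entpd2, which encode ectonucleotidases, had values of -0.97 and -0.77, and P2rx3, an ATP-gated channel gene of sensory neurons, had -2.33. Entpd1 was 182 and 179 CPM in No MM 3 and No MM 4 and 46.2 to 71.1 CPM in the other 8, and P2rx3 was 10.1 and 23.0 CPM against 0.621 to 2.20 CPM.

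Of the prostaglandin and nitric oxide genes, 24 were tested, 13 above 0 and 11 below, with a median of 0.229, and 4 were lower at an unadjusted p under 0.05. These were Arg1 (arginase, -2.72), Nos1 (the neuronal synthase, -2.91), Ptges (a prostaglandin E synthase, -1.46) and Nos2 (the inducible synthase, -0.85). Nos1 was 38.1 and 31.4 CPM in No MM 3 and No MM 4 and at most 5.15 CPM in the other 8, and Ptges was 34.0 and 38.1 CPM against 6.43 to 13.7 CPM. Arg1 was 5.04 and 8.20 CPM in that pair against 0.351 to 0.686 CPM. Of the load-responsive genes, 22 were tested, 13 above 0 and 9 below, with a median of 0.108. The early-response gene Fosb had a log2 fold change of -2.30 and Nr4a1 one of 0.86. Fosb was 6.20 and 5.34 CPM in No MM 3 and No MM 4 and at most 0.838 CPM in the other 8. Of the 13 genes, 6 had No MM 3 and No MM 4 above all other libraries and 2, Trpc6 and P2ry1, had both below. The share of all tested genes with either pattern was not counted, and the test that picked the 13 included this pair. Without No MM 3 and No MM 4, the fold change was 0.87 for Trpc6 and 0.32 for P2ry1, and P2rx3 changed direction to 0.40. In that fit 0 of the 13 had an unadjusted p under 0.05 (edgeR, smallest 0.0535, for P2ry12). Over the 16600 genes tested in it, 417 were higher and 560 lower at that threshold.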

How the data were processed

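One RNA-seq library per mouse (TruSeq Stranded Total RNA, paired ends of 76 bases) was analyzed for 5 No MM and 5 MM mice. Per the labels, reads passed FastQC 0.11.5 and were aligned with STAR. The counting program, annotation and strand setting are not given in the sources used here. The authors deposited whole-number read counts per gene, which were analyzed. The deposited signal (counts over a library size factor), the deposited FPKM columns, and the log2 and p-value columns of the authors' own comparison were not used.

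Counts were analyzed in R 4.3.3 with edgeR 4.0.16. Genes were filtered with filterByExpr, scaled by TMM and tested for MM against No MM by glmQLFit and glmQLFTest over all 16186 tested genes, without covariates. Benjamini-Hochberg adjustment was applied, with a threshold of 0.05. The prior count for log2 CPM was 2. Single values were compared with exact two-sided permutation tests over the 252 assignments in scipy 1.17.1, whose smallest possible p is 0.00794. Ratios were taken per kilobase of the deposited gene length with 0.5 counts added. The fits were tested on simulated data.

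Depth was 31099174 to 39466332 counts per library, and limits drawn from 3 counts cover counting error only. The labels name separate mice, with no batch and no pairing. The 10 genes and the lists were chosen with earlier results of these data known. All 10 genes were named, together with list genes of the smallest unadjusted p under 0.05 (at most 6 per list), Ptgs1, and the 3 genes closest to Gja1 and to Panx3. Alternatives were DESeq2 1.42.0, other size factors, other filters, immunoglobulin genes taken out, marker covariates and left-out libraries. Those on Y-linked reads were chosen after seeing the data. GENCODE M21, used for overlapping genes, held 22284 of the identifiers, 68.4% of them at the same coordinates.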

Additional observations from a re-analysis of the deposited data

Results flagged for a closer look

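In all, 28 sets of 5 libraries were checked for a value far from the others, with a limit of 0.71 of the range. Chance would give about 1.4 such sets for normal values in independent sets, but these sets share libraries. There were 2, both in MM 6 and both on CPM, and these gaps were not checked on log2 CPM. Panx3 was 72.1 CPM in MM 6 and 10.4 to 22.1 CPM in the other 4 MM libraries, a gap of 0.812 of the group's range. Pkd1 was 128 CPM in MM 6 and 63.9 to 80.2 CPM in the other 4, a gap of 0.745 of the range.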

How the results depend on the processing

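No adjusted call arose for any of the 10 genes under any alternative run, with smallest adjusted p-values of 0.191 for Ptgs2 and 0.266 for P2rx7. Piezo1, Pkd1, P2rx7, Ptgs2 and Nos3 kept their direction under every alternative that gave a value, and Ptgs2 gave none with at least 10 counts in every library. Over all genes, edgeR called 0 under each of its alternatives at the adjusted threshold, DESeq2 called 34 higher and 155 lower, and an unadjusted p under 0.05 gave 617 higher and 1664 lower. Without No MM 3 and No MM 4, the log2 differences changed sign to -0.282 for Panx1, -0.064 for Panx3, -0.0696 for Trpv4, -0.165 for the ratio of Panx3 to Panx1 and -0.638 for the summed osteocyte markers. The Gja1 value became 0.164 with the osteocyte markers as a covariate. In 2 alternatives added after seeing the data it became 0.0929 with high against low Y-linked reads as a covariate and 0.773 in the 7 libraries with few of them. The causes were not tested. With each library left out in turn, the values ran from -0.3 to 0.678 for Gja1, 0.0112 to 0.506 for Panx1, -0.202 to 0.943 for Panx3, 0.0133 to 0.113 for Piezo1, -0.837 to 0.0128 for Piezo2, -0.00476 to 0.381 for Trpv4, 0.0887 to 0.363 for Pkd1, 0.251 to 0.514 for P2rx7, 0.441 to 1.53 for Ptgs2, -0.712 to -0.326 for Nos3, -0.0541 to 0.867 for the ratio of Panx3 to Panx1 and -0.235 to 0.46 for the osteocyte markers. Gja1 changed sign without No MM 1, No MM 5, MM 7 or MM 9, the ratio without No MM 4, and the osteocyte markers without No MM 3, No MM 4, MM 6 or MM 7. No paired analysis was possible because mice 1 to 5 are controls and mice 6 to 10 bear myeloma, so the groups share no number. Depth limits Ptgs2 most, with as few as 4 counts in a library.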
